A study of Rattus norvegicus with 12 samples.

Results

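The genes of the proteasome were followed in rat left ventricle 1 d after surgery. Members were all protein-coding genes of the count table whose symbol begins with Psm, a letter from a to g and a digit, which gave 49 of 34599 genes. They comprised 8 alpha subunits, 11 beta subunits, 6 ATPases and 3 non-ATPase subunits of the base, 8 lid subunits, 3 regulatory particle chaperones, 4 further activators, 1 inhibitor, 4 core particle chaperones, and Psmc3ip, which meets the symbol rule but encodes a recombination cofactor and no proteasome subunit. Ventricular tissue came from 12 male SD rats in 3 groups of 4. Sham rats underwent thoracotomy with the left anterior descending coronary artery not tied, and MI rats had that artery ligated. iCarP+/Light+ rats had the artery ligated, received an injection of the green alga Chlorella vulgaris into the infarcted wall, carried the iCarP optical fiber patch glued to the epicardium, and were illuminated through it. Alga, patch, glue and light came together in these rats, so their parts cannot be told apart, and patch-bearing rats without illumination were not analysed here. The rats were 6 weeks old when purchased.

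The proteasome degrades proteins that carry a ubiquitin tag. Its core particle is a stack of rings, in which the alpha rings gate the entry and the beta rings hold the cutting sites. The regulatory particle caps the core: its lid removes ubiquitin, and its base holds ubiquitin receptors and the ATPases that unfold the substrate and push it inside. In interferon-exposed and immune cells the constitutive catalytic subunits Psmb5, Psmb6 and Psmb7 are replaced by the inducible Psmb8, Psmb9 and Psmb10, which gives the immunoproteasome and changes the peptides offered to MHC class I. Activators encoded by Psme1 to Psme4 can open the core in place of the regulatory particle. In heart muscle the system turns over sarcomere proteins and damaged proteins.

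Total counts per rat ran from 14064414 to 17136958, and genes of the mitochondrial genome took 22.8 to 28.9% of counts in Sham rats, 8.52 to 11.5% in the MI group and 7.14 to 14.2% in the iCarP+/Light+ group. Levels are given as CPM, the counts scaled to library size after trimmed mean of M values (TMM) normalization. The summed CPM of 8 cardiomyocyte markers lay between 36424 and 40976 in Sham, 2598 and 5279.5 in MI, and 1969 and 5737 in iCarP+/Light+, and 7 of the 8 were lower in MI than in Sham. The summed CPM of 9 leukocyte markers lay between 229 and 411, 3820.1 and 6628, and 4945 and 7558 in the same order, and 7 of the 9 were higher in MI. All 5 endothelial markers and 5 of 6 fibroblast markers were lower in MI, and 4 of 4 red blood cell markers were lower in MI and 3 of 4 higher in iCarP+/Light+ than in MI. Marker levels of several cell types thus differed between the groups, and in bulk tissue fewer cells of a type and less RNA per cell cannot be told apart. The part of these markers, and of the mitochondrial share, in the results was not tested.

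MI replicate 4 stood apart. Among the 4 MI rats it had the highest level of 42 of the 46 members that could be tested, and its summed CPM over the members was 5974, whereas the other MI rats had 4408, 4662 and 4906. Its leukocyte marker sum was also the highest of the MI rats, 6628 against 3820.1 to 5503, and its endothelial sum the lowest, 497 against 678 to 803. Sham rats summed to 4157, 4253, 4407 and 4486 and iCarP+/Light+ rats to 4712, 4741, 4851 and 4972, so these 2 groups did not overlap. For results that rest on MI replicate 4, the value without it is given or the lost call is named.

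**Figure D1:**
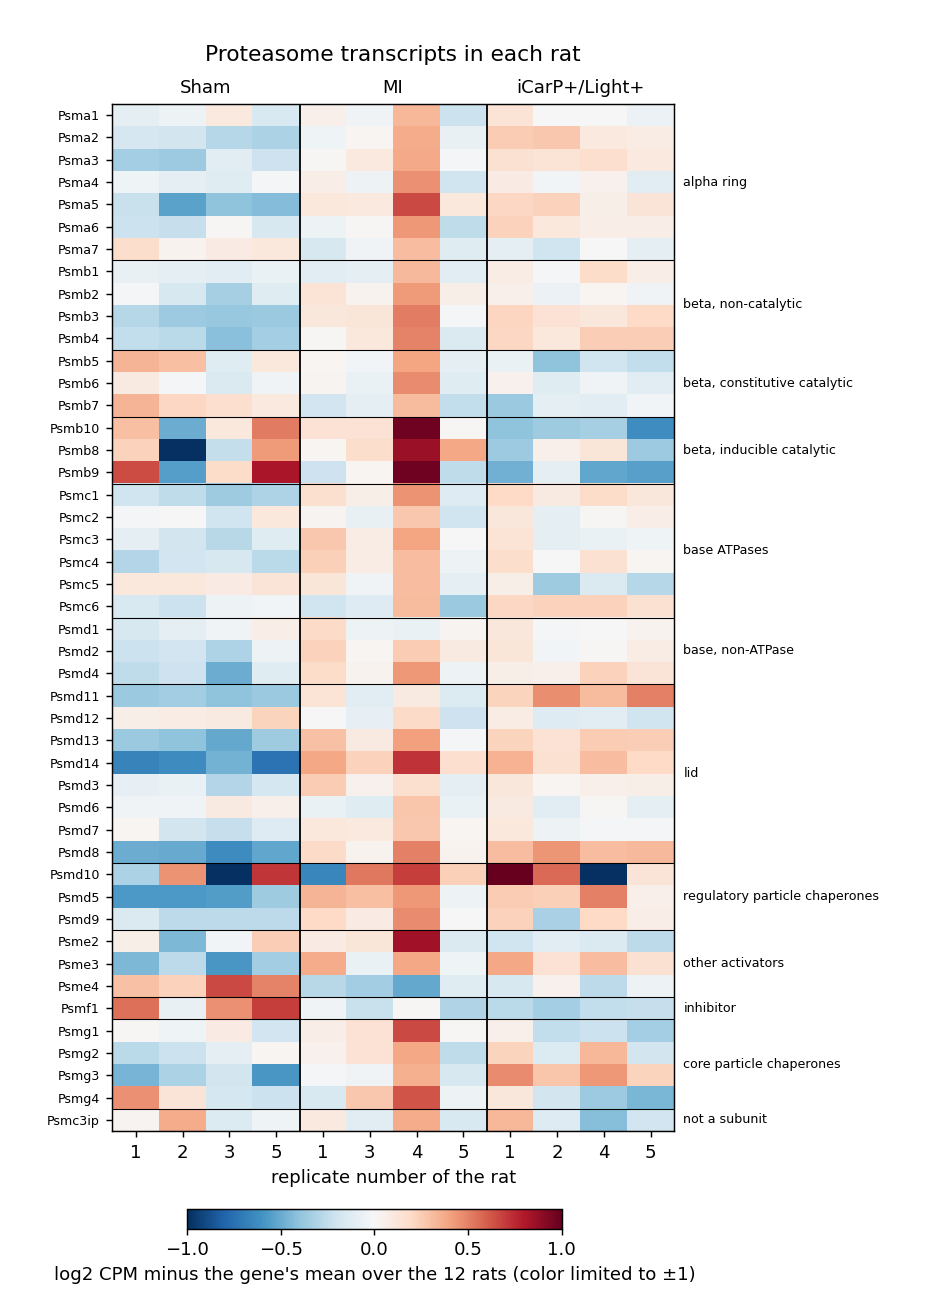
Heatmap of the 46 tested proteasome genes (rows, grouped by structural class) in each of the 12 rats (columns, replicate numbers within group); color is log2 CPM minus the gene's mean over the 12 rats, limited to 1 on either side. The MI replicate 4 column is the reddest of its group, holding the highest MI level in 42 of 46 rows, and the inducible subunits are lowest of the Sham rats in Sham replicate 2.

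The first comparison asked what ligation did to proteasome transcripts. Of the 46 members tested, 21 (45.7%) were higher in MI than in Sham, 2 (4.35%) were lower and 23 did not pass, at an adjusted p below 0.05 in edgeR. Over all 15101 genes tested, 30.2% were higher and 33.6% lower. The members' median log2 fold change was 0.26, against -0.06 over all genes, and 36 of the 46 were above 0. Without MI replicate 4 the median was 0.12 against -0.04 over all genes, 17 members were higher, all of them among the 21, and 3 were lower. The calls lost there were those of Psma2, Psmd3, Psmd7 and Psmg3. Of the 21, 16 were called in each of the 12 fits that left out 1 rat, and Psma2, Psmb2, Psmd3, Psmd7 and Psmg3 were not. Scaling by total counts alone moved the median of all genes to 0.52 and that of the members to 0.83. It called 42 members higher and none lower. Such scaling shifts all genes by nearly the same amount, so the distance between both medians could hardly change. That distance was 0.31 there and 0.32 with TMM.

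**Figure D2:**
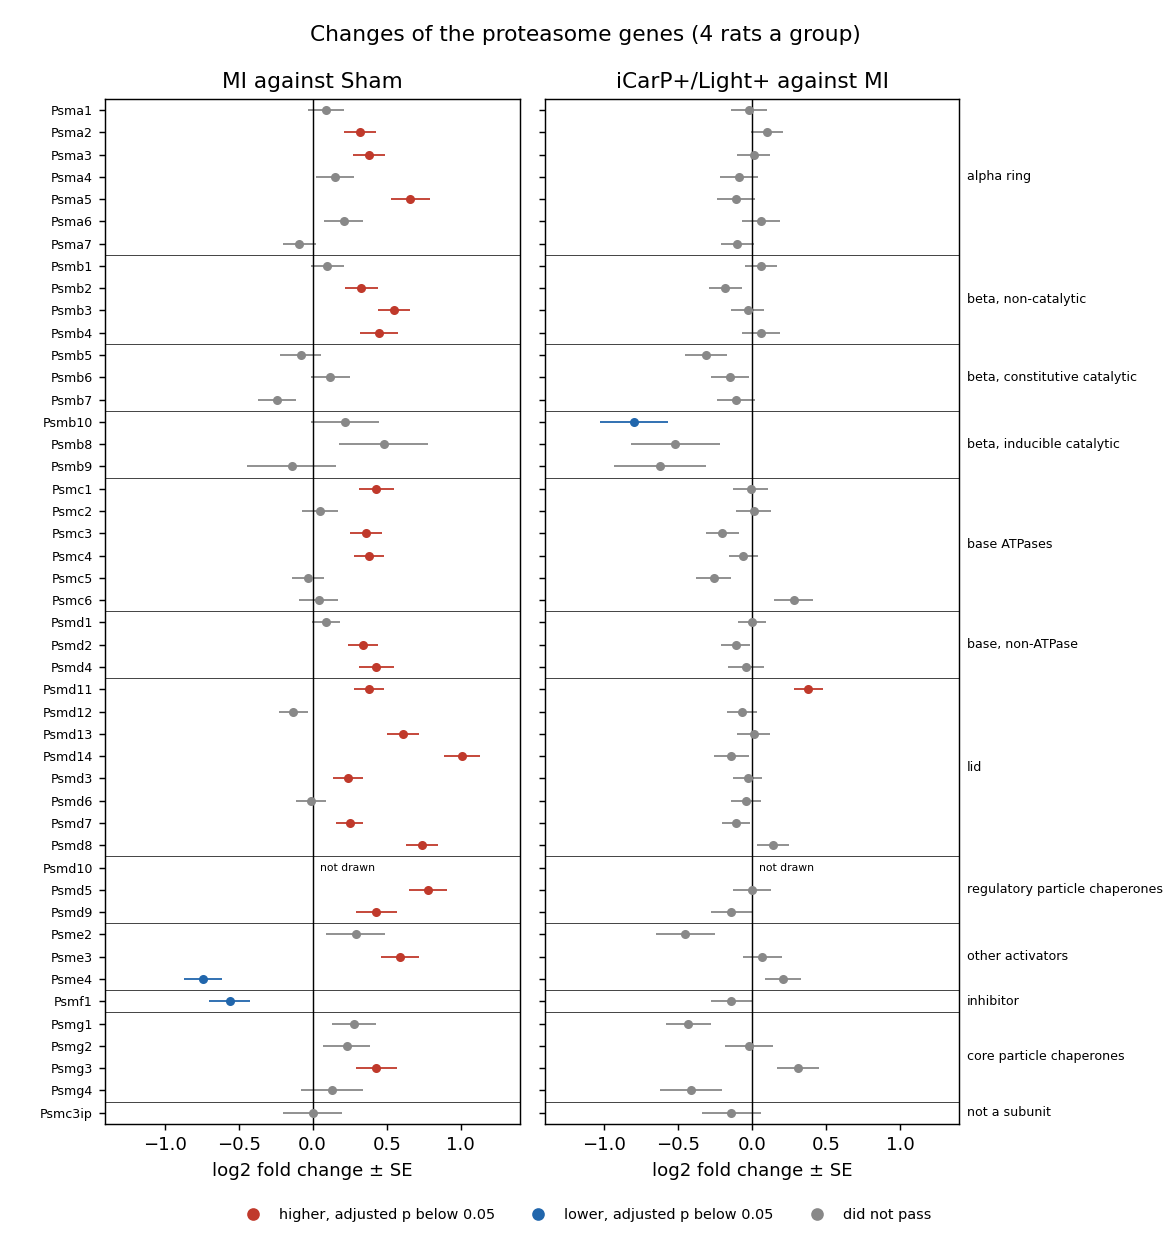
Log2 fold change with its standard error for each tested member, MI against Sham on the left and iCarP+/Light+ against MI on the right (4 rats per group, edgeR); red and blue mark an adjusted p below 0.05. On the left 21 genes are red and 2 blue, on the right 1 of each; Psmd10 is not drawn because it had 25 to 48 counts in a group.

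The regulatory particle, the largest class with 17 subunits, held the most calls. In MI, 11 of the 17 (64.7%) were higher and none was lower, against 30.2% and 33.6% of all genes. Their median log2 fold change was 0.34. In 2 smaller classes the share higher was no less, with 75.0% of the non-catalytic beta subunits and 66.7% of the regulatory particle chaperones. Within the regulatory particle, the lid contributed 6 of its 8 subunits (75.0%), Psmd3, Psmd7, Psmd8, Psmd11, Psmd13 and Psmd14. The calls of Psmd3 and Psmd7 were lost without MI replicate 4 and without some other rats. Psmd14 (ENSRNOG00000061129, rn6 chr3:47578384-47673338, plus strand) is the metalloprotease that cuts the ubiquitin chain off the substrate. Its CPM was 46.3, 47.6, 53.0 and 44.0 in Sham replicates 1, 2, 3 and 5, and 95.9, 86.0, 121 and 82.6 in MI replicates 1, 3, 4 and 5. The groups did not overlap, and the level was 2.02-fold in MI (log2 fold change 1.01 ± 0.12 SE, adjusted p = 1.27e-05), the largest rise among the members; leaving out any 1 rat kept it between 0.89 and 1.12.

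Psmd8, a structural lid subunit, had 72.1, 71.7, 65.7 and 70.7 CPM in Sham and 116, 104, 144 and 104 CPM in MI, again without overlap (log2 fold change 0.74 ± 0.11, adjusted p = 7.43e-05). Psmd13 rose by 0.61 ± 0.11 on the log2 scale (adjusted p = 2.41e-04), from a mean of 86.5 ± 4.21 CPM to 132 ± 18.5 CPM (SD, n = 4). Psmd11, the lid subunit that a kinase of the cAMP pathway can phosphorylate, was nearly constant in Sham at 101, 103, 98.8 and 101 CPM and stood at 144, 121, 139.6 and 119 CPM in MI (0.38 ± 0.10, adjusted p = 0.00521). Psmd3 and Psmd7 changed least of the 6, by 0.24 and 0.25. The lid scaffold subunit Psmd12 went the other way without passing: 108, 109, 110.4 and 121 CPM in Sham and 104, 97.6, 118 and 89.6 CPM in MI (-0.13 ± 0.10, adjusted p = 0.287). Psmd6 had almost the same mean in both groups, 84.7 ± 3.68 and 84.3 ± 11.2 CPM.

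In the base, the ATPases Psmc1, Psmc3 and Psmc4 rose and Psmc2, Psmc5 and Psmc6 did not pass. Psmc1 had 136, 131, 122 and 126 CPM in Sham and 175, 163, 213 and 143 CPM in MI (0.43 ± 0.12, adjusted p = 0.00566). Psmc5 stayed close to its Sham level, with 116, 116, 114 and 118 CPM against 117, 105, 133 and 101 CPM (-0.03 ± 0.11, adjusted p = 0.857). The 6 ATPases form 1 ring with a single copy of each, yet their transcripts ranged from -0.03 to 0.43 in log2 fold change. Of the non-ATPase base subunits, the ubiquitin receptor Psmd4 rose from 95.7, 98.6, 81.0 and 105 CPM to 129.8, 117, 154 and 110.1 CPM (0.43 ± 0.12, adjusted p = 0.00770), and the scaffold subunit Psmd2 rose by 0.34 ± 0.10. Psmd1, the other scaffold, had 162, 169, 176 and 189 CPM in Sham and 206, 175, 173 and 184 CPM in MI, which overlapped (0.09 ± 0.095, adjusted p = 0.449).

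In the core particle, 6 of the 14 tested constitutive subunits (42.9%) rose and none fell, against 30.2% and 33.6% of all genes. In the alpha ring these were Psma2, Psma3 and Psma5 of 7 (42.9%). Psma5 had the largest change, from 70.3, 56.8, 62.2 and 60.9 CPM to 88.5, 87.9, 129.7 and 88.5 CPM (0.66 ± 0.13, adjusted p = 7.71e-04). MI replicate 4 lay far above the other 3 MI rats, which were within 1 CPM of each other, and without it the difference was 0.50 (adjusted p = 5.34e-04). Psma7 had the lowest log2 fold change of the ring, with 197, 179, 185 and 188 CPM in Sham and 156, 170.4, 216 and 160.0 CPM in MI (-0.09 ± 0.11, adjusted p = 0.497). Of the non-catalytic beta subunits Psmb2, Psmb3 and Psmb4 rose. Psmb3 went from 75.2, 70.9, 70.2 and 70.8 CPM to 99.0, 99.6, 130.2 and 90.4 CPM (0.55 ± 0.11, adjusted p = 7.89e-04), while Psmb1 had 173, 171, 169.5 and 174 CPM against 169, 171, 228 and 168 CPM and did not pass (0.10 ± 0.11, adjusted p = 0.450).

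None of the 3 constitutive catalytic subunits passed in MI. Psmb5, the chymotrypsin-like subunit, had 106, 103, 76.9 and 89.9 CPM in Sham and 84.8, 82.3, 110.0 and 78.4 CPM in MI (log2 fold change -0.08, 95% interval -0.35 to 0.19). Psmb6, the caspase-like subunit, had 117, 109, 99.3 and 107 CPM and 112, 105, 152 and 101 CPM (0.12, interval -0.13 to 0.37). Psmb7, the trypsin-like subunit, had 115, 105, 102 and 97.4 CPM and 79.7, 85.4, 113 and 76.4 CPM (-0.24, interval -0.50 to 0.02). Only for Psmb7 did 3 of the 4 MI rats lie below every Sham rat; without MI replicate 4 it was called lower (adjusted p = 0.00835). The Psmb7 interval overlaps Nek6 on the opposite strand, whose mean rose from 14.4 to 75.6 CPM.

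Assembly factors were unequal. Psmd5, a chaperone that holds an ATPase module before the regulatory particle is complete, had 25.4, 25.3, 25.7 and 29.5 CPM in Sham and 47.7, 46.6, 51.0 and 36.4 CPM in MI (0.78 ± 0.13, adjusted p = 1.39e-04). Psmd9, a chaperone of the same step, rose by 0.43 ± 0.14. Psmd10, the gankyrin gene, had only 25 counts in all Sham rats and 41 in all MI rats, from which nothing could be read (0.27 ± 0.70). Of the 4 core particle chaperones, only Psmg3 passed, with 10.5, 11.6, 12.7 and 9.66 CPM in Sham and 14.3, 14.1, 18.5 and 12.9 CPM in MI (0.43 ± 0.14, adjusted p = 0.0191; 0.0577 at the highest when 1 rat was left out). Psmg4 had the smallest change of the 4, with 19.4, 15.4, 12.5 and 12.2 CPM against 12.7, 17.0, 21.8 and 13.6 CPM (0.13 ± 0.21, adjusted p = 0.604).

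The activators split. Psme3, the nuclear activator known as PA28-gamma, had 39.8, 45.4, 36.4 and 42.8 CPM in Sham and 70.3, 52.1, 71.3 and 52.9 CPM in MI (0.59 ± 0.13, adjusted p = 0.00138). Psme4, which encodes the large activator PA200 (rn6 chr14:115166416-115269056, plus strand), had 228, 219, 295 and 263 CPM in Sham and 154, 147, 131 and 171 CPM in MI. The groups did not overlap, and Psme4 fell by 0.74 ± 0.13 on the log2 scale (adjusted p = 1.89e-04), although with total counts alone the change was -0.15 and did not pass (adjusted p = 0.295). Psmf1, the gene of the inhibitor PI31 (rn6 chr3:147238114-147263275, minus strand), had 51.5, 33.4, 48.2 and 56.8 CPM in Sham and 34.3, 30.2, 35.4 and 28.5 CPM in MI. Sham replicate 2 lay within the MI range, and Psmf1 fell by 0.56 ± 0.14 (adjusted p = 0.00383), whereas with total counts alone it was at 0.02. Both falls were called in each of the 12 fits without 1 rat. Psme2, a subunit of the interferon-inducible activator PA28, had 84.6, 59.4, 79.7 and 96.3 CPM in Sham and 85.8, 88.1, 145 and 73.4 CPM in MI and did not pass (0.29 ± 0.20, adjusted p = 0.207; 0.05 without MI replicate 4 and 0.17 without Sham replicate 2).

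**Figure D3:**
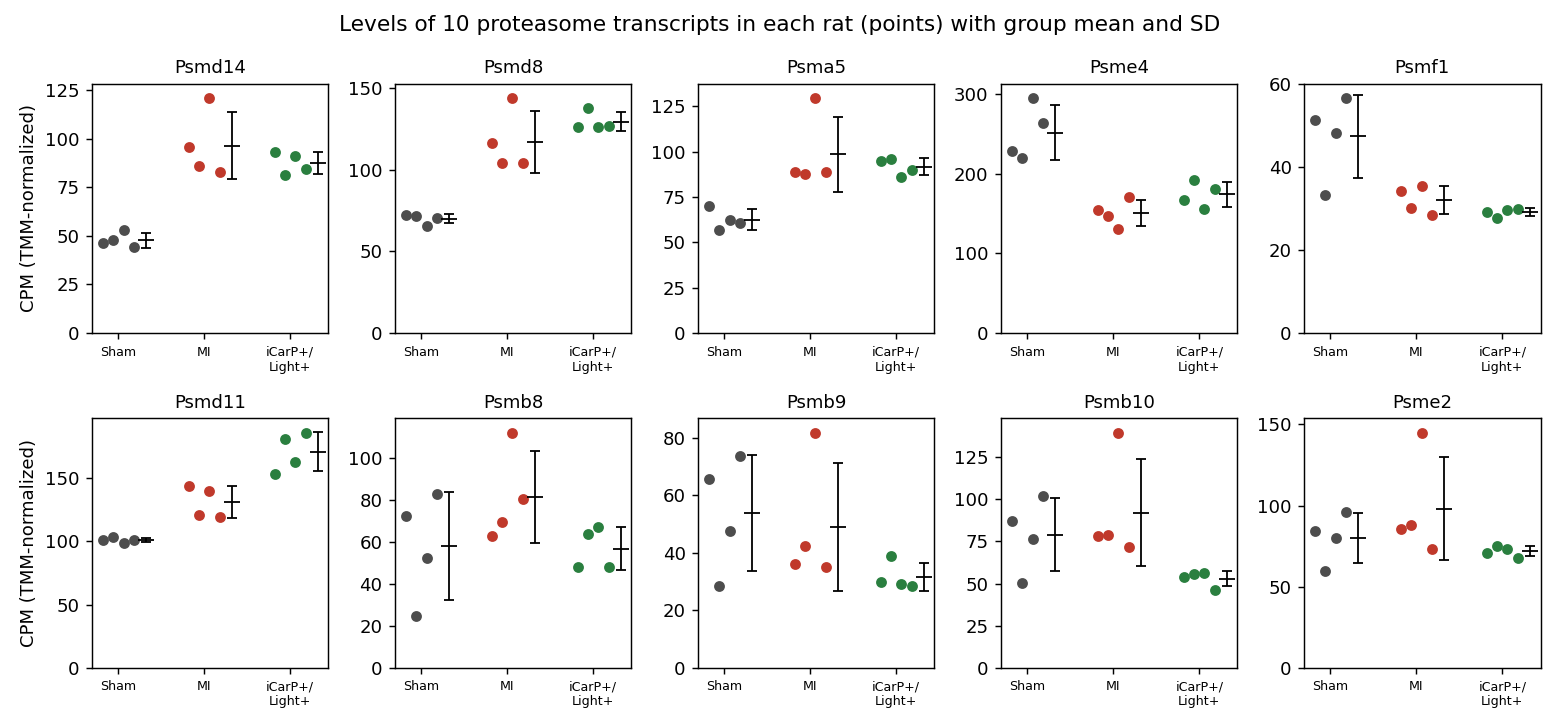
CPM of 10 proteasome genes in each rat (points; from left to right in order of replicate number) with the group mean and SD (n = 4); axes start at 0. Psmd14, Psmd8 and Psma5 are higher in every MI rat than in every Sham rat, Psme4 is lower in every MI rat, and MI replicate 4 is the highest MI point for Psmb8, Psmb9, Psmb10 and Psme2.

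The immunoproteasome subunits varied widely between rats of a group. Psmb8 and Psmb9 lie close together on chromosome 20, in the MHC region (rn6 chr20:3990613-3993769, plus strand, and chr20:3973420-3978845, minus strand), and Psmb10 lies on chromosome 19 (chr19:37909546-37912027, minus strand). Psmb8 had 72.4, 24.8, 52.1 and 82.9 CPM in Sham, 62.6, 69.6, 112 and 80.4 CPM in MI, and 48.0, 63.9, 67.0 and 47.9 CPM in iCarP+/Light+ replicates 1, 2, 4 and 5. Psmb9 had 65.6, 28.5, 47.4 and 73.5 CPM in Sham, 36.1, 42.3, 81.8 and 35.0 CPM in MI, and 29.9, 39.0, 29.1 and 28.6 CPM in iCarP+/Light+. Psmb10 had 87.3, 50.4, 76.2 and 102 CPM in Sham, 78.4, 78.6, 139.6 and 71.7 CPM in MI, and 53.8, 55.4, 56.4 and 46.1 CPM in iCarP+/Light+. Sham replicate 2 was the lowest Sham rat and Sham replicate 5 the highest for all 3 and for Psme2, and MI replicate 4 was the highest MI rat for all 4. Sham replicate 2 was also the lowest Sham rat for 11 of 14 genes of MHC class I peptide loading.

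From Sham to MI none of the inducible subunits passed. Psmb8 changed by 0.48 (95% interval -0.11 to 1.07, adjusted p = 0.176), Psmb9 by -0.14 (-0.74 to 0.46, adjusted p = 0.706) and Psmb10 by 0.22 (-0.23 to 0.67, adjusted p = 0.417). Without Sham replicate 2 the values were 0.23, -0.35 and 0.06, and without MI replicate 4 they were 0.29, -0.50 and -0.04. Their intervals were wider than those of Psmb5, Psmb6 and Psmb7, and the upper bound for Psmb8 lay above the estimate for each lid subunit.

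Each inducible subunit takes the place of a given constitutive subunit, so their log2 ratio within a rat, from CPM per kb of listed gene length, does not depend on the scaling of the library. The log2 ratio Psmb8/Psmb5 was -1.79, -3.29, -1.80 and -1.36 in Sham, -1.68, -1.48, -1.21 and -1.21 in MI, and -1.98, -1.22, -1.36 and -1.80 in iCarP+/Light+. Sham replicate 2 was far below the rest, and the MI and Sham means differed by 0.66 (p = 0.143, two-sided exact permutation test of 4 rats against 4, adjusted p = 0.257 over 9 comparisons); without that rat the difference was 0.25. The log2 ratio Psmb9/Psmb6 was -1.92, -3.02, -2.15 and -1.62 in Sham, -2.72, -2.39, -1.97 and -2.62 in MI, and -2.99, -2.45, -2.95 and -2.92 in iCarP+/Light+. Its largest difference was between iCarP+/Light+ and Sham, -0.65 (exact permutation p = 0.143, adjusted p = 0.257). The log2 ratio Psmb10/Psmb7 was 0.38, -0.29, 0.35 and 0.84 in Sham, 0.75, 0.65, 1.07 and 0.68 in MI, and 0.38, 0.15, 0.19 and -0.19 in iCarP+/Light+. Every iCarP+/Light+ rat lay below every MI rat, a difference of -0.65 at an exact permutation p = 0.0286, the smallest that the 70 arrangements allow, but the adjusted p was 0.257. With the strand setting unknown, the Psmb7 counts in this ratio may include reads of Nek6, whose mean was 14.4 CPM in Sham, 75.6 CPM in MI and 135 CPM in iCarP+/Light+. None of the 9 ratio comparisons passed after adjustment, but with 4 rats a group a single ratio whose groups were fully apart could not have passed, so this says nothing about whether the ratios differed.

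**Figure D4:**
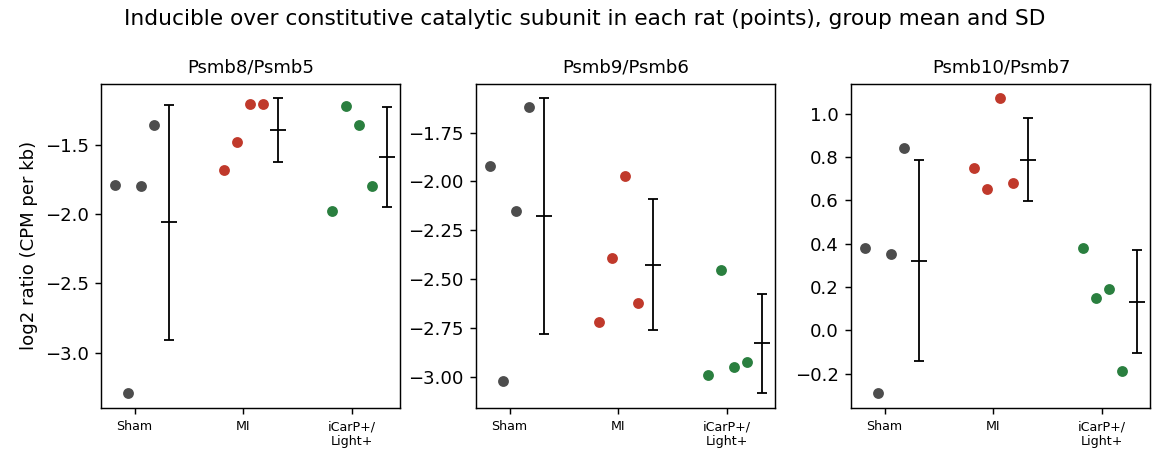
Log2 ratio of each inducible catalytic subunit to the constitutive subunit it replaces, from CPM per kb, in each rat (points, in order of replicate number) with group mean and SD (n = 4); the axes do not start at 0. Sham replicate 2 is the lowest Sham point in all 3 panels, and in the Psmb10/Psmb7 panel the iCarP+/Light+ points (-0.19 to 0.38) lie below the MI points (0.65 to 1.07).

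Promoter windows of RefSeq (build GRCr8, 250 bases before to 50 after the gene start) were found for 44 of the 49 members; Psma7, Psmb11, Psmd6, Psmd12 and Psmd14 had none. The windows of the inducible subunits and Psme2 are printed because these members varied together between rats, and those of Psmd8, which rose, and Psme4, which fell, are printed for contrast. Capitals mark any match, on either strand, to the antioxidant response element core TGACNNNGC bound by NFE2L1 and NFE2L2, the interferon-stimulated response element (ISRE) core GAAANNGAA, the gamma-activated sequence TTCNNNGAA, the CCAAT box bound by NF-Y, and the NF-kappaB motif.
Psmb8, chr20:4656982-4657281, minus strand: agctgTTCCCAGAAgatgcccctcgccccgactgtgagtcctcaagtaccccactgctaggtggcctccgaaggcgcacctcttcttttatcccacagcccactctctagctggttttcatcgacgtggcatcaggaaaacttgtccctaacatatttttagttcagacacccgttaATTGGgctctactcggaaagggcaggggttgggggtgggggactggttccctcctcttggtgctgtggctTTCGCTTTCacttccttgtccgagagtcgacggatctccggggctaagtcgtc
Psmb9, chr20:4668750-4669049, plus strand: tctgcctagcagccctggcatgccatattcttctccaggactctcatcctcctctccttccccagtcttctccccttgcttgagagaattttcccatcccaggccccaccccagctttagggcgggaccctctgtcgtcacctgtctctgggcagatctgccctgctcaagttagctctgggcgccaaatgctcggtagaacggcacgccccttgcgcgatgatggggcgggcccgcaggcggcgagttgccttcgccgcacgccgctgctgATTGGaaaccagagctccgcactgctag
Psmb10, chr19:50743243-50743542, minus strand: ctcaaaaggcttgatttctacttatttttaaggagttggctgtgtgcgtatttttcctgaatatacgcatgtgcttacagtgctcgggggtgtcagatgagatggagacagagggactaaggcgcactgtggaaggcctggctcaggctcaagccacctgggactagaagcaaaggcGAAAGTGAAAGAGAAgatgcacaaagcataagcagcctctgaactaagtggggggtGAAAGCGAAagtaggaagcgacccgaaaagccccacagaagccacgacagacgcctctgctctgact
Psme2, chr15:33052702-33053001, minus strand: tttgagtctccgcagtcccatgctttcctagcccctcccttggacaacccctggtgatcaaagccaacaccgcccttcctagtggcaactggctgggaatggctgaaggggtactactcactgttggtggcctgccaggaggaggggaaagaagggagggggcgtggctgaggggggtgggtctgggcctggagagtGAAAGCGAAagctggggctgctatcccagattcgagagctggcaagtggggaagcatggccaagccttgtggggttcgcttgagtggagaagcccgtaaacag
Psmd8, chr1:93608640-93608939, minus strand: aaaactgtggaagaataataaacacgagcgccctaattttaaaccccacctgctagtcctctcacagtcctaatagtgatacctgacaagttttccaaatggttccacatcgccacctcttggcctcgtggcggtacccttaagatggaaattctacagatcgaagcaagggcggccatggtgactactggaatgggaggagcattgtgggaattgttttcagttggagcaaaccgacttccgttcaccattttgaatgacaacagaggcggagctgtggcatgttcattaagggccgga
Psme4, chr14:108706393-108706692, plus strand: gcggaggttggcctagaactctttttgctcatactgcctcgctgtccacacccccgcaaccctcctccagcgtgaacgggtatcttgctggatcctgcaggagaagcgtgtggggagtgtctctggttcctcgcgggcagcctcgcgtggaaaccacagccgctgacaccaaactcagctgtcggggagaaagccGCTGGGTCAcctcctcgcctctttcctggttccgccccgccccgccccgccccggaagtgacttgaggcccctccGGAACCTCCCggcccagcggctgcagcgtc

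The Psmb10 window held 3 ISRE core matches, which begin 73, 67 and 17 bases before the start, the first 2 overlapping. Psme2 held 1 at 53 bases before the start and Psmb8 held 1 at 3 bases before it, together with a gamma-activated sequence at 245 bases and a CCAAT box at 73 bases. The Psmb9 window held only a CCAAT box, and that of Psmd8 none of the 5 motifs. The Psme4 window held an antioxidant response element core at 55 bases before the start and an NF-kappaB motif just after it. Over all members, the ISRE core occurred in 9 of 44 windows (20.5%), against 9.71% of all 33469 windows of this length, the antioxidant core in 18.2% against 12.1%, the CCAAT box in 22 of 44 against 37.5%, the gamma-activated sequence in 9.09% against 8.87%, and the NF-kappaB motif in 11.4% against 7.51%. Member windows were richer in G and C, with a median of 56.5% against 51.7%. A match to these letters is not a bound site, and the windows without one say nothing of the factors.

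The second comparison asked how the treated infarct differed from the untreated one; it shares the 4 MI rats with the first. Of the 46 members, 1 was higher in iCarP+/Light+, 1 was lower and 44 did not pass, whereas 11.6% of all genes were higher and 2.01% lower. The members' median log2 fold change was -0.05, against 0.01 over all genes. Without MI replicate 4 the median was 0.04, with 2 members higher, Psmd11 and Psmc6, and none lower. Total counts alone moved the median of all genes to -0.25 and called 19 members lower and none higher. The members' median was 0.06 below that of all genes there as well as with TMM, a distance that a shift of all genes leaves nearly unchanged. Markers of other cells also differed between these groups: of 9 leukocyte markers, the neutrophil genes S100a8 (3.37) and Csf3r (2.67) and the general leukocyte gene Ptprc (0.84) were higher in iCarP+/Light+, and the T cell gene Cd3e (-1.25) was lower, from a mean of 4.75 to 1.98 CPM. The fibroblast gene Dcn was higher (0.73), as were 3 of 4 red blood cell markers. The calls of Cd3e and Dcn were lost without MI replicate 4, at -0.87 and 0.67, and without some other rats, and that of Ptprc without iCarP+/Light+ replicate 5 (0.57). The part of these markers in the calls of Psmd11 and Psmb10 was not tested.

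The member that rose was Psmd11 (rn6 chr10:67810655-67857223, plus strand), with 153, 181, 163 and 186 CPM in iCarP+/Light+ against 144, 121, 139.6 and 119 CPM in MI. The groups did not overlap (0.38 ± 0.10, adjusted p = 0.0222), and since Psmd11 was also higher in MI than in Sham, its mean went from 101 ± 1.58 to 131 ± 12.6 to 170.5 ± 15.3 CPM (SD, n = 4). The call was lost without iCarP+/Light+ replicate 2 or 5 or MI replicate 3 or 5, with adjusted p up to 0.155, and with total counts alone the change was 0.11 (adjusted p = 0.396). The lid subunit Psmd8 had 126, 138, 126 and 127 CPM in iCarP+/Light+ (0.14 ± 0.11 against MI, adjusted p = 0.471). Psmd14 had 93.3, 81.5, 90.8 and 84.2 CPM, within the MI range except for 1 rat (-0.14 ± 0.12, adjusted p = 0.532).

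The member that fell was Psmb10, whose 46.1 to 56.4 CPM lay below the 71.7 to 139.6 CPM of the MI rats (-0.80 ± 0.23, adjusted p = 0.0365). Without MI replicate 4 the difference was -0.53 and did not pass (adjusted p = 0.0920), and the call was also lost without any 1 iCarP+/Light+ rat or Sham replicate 3. Psmb8 and Psmb9 were at -0.52 (interval -1.11 to 0.07, adjusted p = 0.315) and -0.62 (-1.23 to -0.02, adjusted p = 0.228), and Psme2, with 70.9, 75.0, 73.4 and 67.9 CPM, was at -0.45 ± 0.20 (adjusted p = 0.167). All 4 were thus below 0, with a median of -0.62 for the 3 inducible subunits, but without MI replicate 4 Psmb8, Psmb9 and Psme2 stood at -0.32, -0.26 and -0.20. The core chaperone Psmg1 was near the threshold at -0.43 ± 0.15 (adjusted p = 0.0754) and was called lower by DESeq2.

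Among the constitutive catalytic subunits, Psmb5 had 79.8, 63.2, 72.8 and 70.7 CPM (-0.31 ± 0.14 against MI, adjusted p = 0.168), Psmb6 had 113, 101, 107 and 102 CPM (-0.15 ± 0.13) and Psmb7 had 70.3, 85.1, 84.2 and 89.3 CPM (-0.11 ± 0.13). None of them passed. Among the activators and the inhibitor, Psme3 had 71.2, 60.3, 67.5 and 60.7 CPM (0.07 ± 0.13), Psme4 had 167, 192, 156 and 180.5 CPM (0.21 ± 0.12, adjusted p = 0.334), and Psmf1 had 29.1, 27.8, 29.7 and 30.0 CPM (-0.14 ± 0.14, adjusted p = 0.609). These 3 overlapped with MI. Of the alpha, non-catalytic beta and base subunits none passed, and their log2 fold changes lay between -0.26 for Psmc5 and 0.28 for Psmc6.

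The third comparison, of iCarP+/Light+ with Sham, uses rats of both earlier comparisons, so its values are set beside theirs and add no separate evidence. It called 16 members higher (34.8%) and 7 lower (15.2%), against 33.5% and 33.0% of all genes. The median was 0.16, against 0.02 over all genes. The largest rises were those of Psmd8 (0.88), Psmd14 (0.87), Psmd5 (0.78), Psmd11 (0.76), Psmg3 (0.73), Psme3 (0.66) and Psmd13 (0.62). Psmc6, which was at 0.04 in MI against Sham, was at 0.32 here (adjusted p = 0.0452), a call that was kept in only 4 of the 12 fits without 1 rat: it was lost without any Sham rat, without iCarP+/Light+ replicate 1, 2 or 4 and without MI replicate 3. The lower members were Psmf1 (-0.70), Psme4 (-0.53), Psmb9 (-0.76), Psmb10 (-0.58), Psmb5 (-0.39), Psmb7 (-0.35) and Psmc5 (-0.28). Of these, only Psme4 and Psmf1 were called in each fit without 1 rat, and with total counts alone only Psmf1 was called, at -0.38, while Psmc5 was at 0.03. Among the 6 constitutive and inducible catalytic subunits, 4 were called lower and none higher, while 4 of 8 lid and 3 of 7 alpha subunits were called higher and none lower; the difference between these classes was not tested.

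Levels between genes were compared per kb of listed gene length. In Sham the 14 constitutive core subunits had a median of 102 CPM per kb and ranged from 24.3 for Psma4 to 203 for Psma7, while the 17 regulatory particle subunits had a median of 60.8 CPM per kb, from 30.1 for Psmd14 and Psmd11 to 102 for Psmc3. In MI the medians were 121 and 77.9 CPM per kb and in iCarP+/Light+ 122 and 75.6. Psmd14 and Psmd11 thus started from the same level per kb, and in MI Psmd14 stood at 60.9 and Psmd11 at 39.2 CPM per kb. Psma3 and Psma4, listed with 3559 and 3909 bases, are long for alpha subunit transcripts, which lowers their value per kb. The inducible Psmb8 and Psmb9 had 28.1 and 35.4 CPM per kb in Sham, below the 108 of Psmb5 and the 151 of Psmb6. Psmb10 with 79.3 CPM per kb lay above the 61.7 of Psmb7. That order rests on the listed lengths, 996 and 1696 bases, since their mean CPM in Sham was 79.0 and 105. Psmb8 and Psmb5 are listed with 2066 and 873 bases, and their mean CPM in Sham was 58.1 and 93.9.

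Of 13 partners without a Psm symbol, 5 (38.5%) were higher and 3 (23.1%) lower in MI than in Sham, near the 30.2% and 33.6% of all genes. The ubiquitin receptor Adrm1 (0.32) and the deubiquitinases Uchl5 (0.71) and Usp14 (0.30) of the regulatory particle rose, and the proteasome-associated scaffold Ecpas fell by 0.66, though only by 0.08 with total counts alone. Zfand2a, a stress-inducible protein that binds the regulatory particle, changed most, by 1.69, and rose again in iCarP+/Light+ against MI by 1.42 (56.9 to 85.3 CPM in MI, 127 to 271 CPM in iCarP+/Light+). Between iCarP+/Light+ and MI, 4 of the 13 partners (30.8%) were higher and none lower, against 11.6% and 2.01% of all genes. Midn and Zfand5, other proteasome-binding proteins, rose in iCarP+/Light+ against MI by 0.80 and 0.55, and so did Akirin2, an import factor of nuclear proteasomes, by 0.54. Zfand5 had been lower in MI than in Sham (-0.51), a direction that turned with total counts alone (0.07). Of 11 shuttle factors and p97 components, 4 (36.4%) rose in MI, led by Rad23b at 0.71, and 3 (27.3%) fell, led by Ufd1 at -0.44 (0.13 with total counts alone), again near the shares of all genes, and none passed between iCarP+/Light+ and MI, against 11.6% higher and 2.01% lower of all genes. The Usp14 call was lost without MI replicate 1 or 4 or Sham replicate 1 or 2, and the Zfand5 rise without iCarP+/Light+ replicate 5 (0.41, adjusted p = 0.0563).

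Of 10 transcription factors known to act on proteasome genes, none was higher in MI than in Sham. Nfe2l1, whose product raises subunit transcription when proteasome activity drops, had 231, 237, 200.0 and 238 CPM in Sham and 104, 97.6, 65.0 and 126 CPM in MI (-1.20 ± 0.18, adjusted p = 6.19e-05). In iCarP+/Light+ against MI 5 of the 10 were higher, where 11.6% of all genes were, among them Nfe2l2 (1.32 ± 0.17), Nfkb1 (1.28 ± 0.14) and Foxo3 (1.42 ± 0.29). The interferon gamma gene Ifng had values of 0 to 0.273 CPM and was not tested. Of 4 receptor and kinase genes, 3 (75.0%), Ifngr1, Ifngr2 and Jak2, were higher in MI than in Sham, against 30.2% of all genes. Ifngr1, Ifngr2, Jak1 and Jak2 were all higher in iCarP+/Light+ than in MI, against 11.6% of all genes. They rose there by 0.59, 1.30, 0.44 and 0.87, of which Ifngr1 and Jak1 did not pass with total counts alone. Without iCarP+/Light+ replicate 5, Ifngr1 stood at 0.34 and Jak1 at 0.27, and both calls were also lost without each of several other rats.

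Of 14 genes of MHC class I peptide loading, 5 (35.7%) were higher and 3 (21.4%) lower in MI, against 30.2% and 33.6% of all genes, and none passed between iCarP+/Light+ and MI, against 11.6% and 2.01% of all genes. Calr, an endoplasmic reticulum chaperone with wider tasks, rose by 1.29 and the class I gene RT1-CE1 fell by 1.59 from a mean of 1.21 CPM, while the class I genes RT1-A2 (0.71, adjusted p = 0.0472, from 74.7 to 122 CPM) and RT1-CE5 (0.84, adjusted p = 0.0476) were higher. Both rises were lost without MI replicate 4 (0.48 and 0.41), without Sham replicate 2 (0.50 and 0.70) and without some other rats, and RT1 genes share reads with near-identical copies. Tap1, which shares its promoter region with Psmb9, did not pass (-0.46 ± 0.32, adjusted p = 0.218; 0.12 with total counts alone). Among 8 rows of ubiquitin and E1 genes, 2 (25.0%) were higher and 1 (12.5%) lower in MI, against 30.2% and 33.6% of all genes. Uba6 rose by 0.83, and Uba7, the E1 of the ubiquitin-like ISG15, fell from 106, 24.1, 94.8 and 124 CPM to 9.05, 12.9, 23.4 and 9.42 CPM (-2.67 ± 0.52, adjusted p = 5.88e-04). The polyubiquitin gene Ubb was higher in iCarP+/Light+ than in MI by 0.56 (adjusted p = 0.0371), which did not pass with total counts alone (0.30) or without iCarP+/Light+ replicate 5 (0.39). The RT1-CE1 call was lost without MI replicate 1 or 4 or Sham replicate 3.

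Some members could not be measured. Psma8, the testis alpha subunit, had 0 to 3 counts per rat, Psmb11, the thymic beta subunit, 0 to 2, and Psme1, the partner of Psme2 in PA28, 0 to 5. The limit that 3 counts set was 0.144 to 0.228 CPM per rat, counting error only. The listed Psme1 interval (rn6 chr15:34256071-34258947, plus strand) overlaps Emc9 on the minus strand, and without a stated strand setting the reads of the shared part cannot be assigned, so the low count says nothing of Psme1 expression. Psmd1, Psme3 and Psmc3ip also overlap other genes (Htr2b, AC123346.1 and Mlx). Psmb6 and Psma3 have near-identical copies in the table, LOC100360846 and LOC100361067, with 1.77 and 1.01 CPM in Sham. Psmc3ip, the member that is no subunit, did not pass, with log2 fold changes of 0.00 ± 0.20 in MI against Sham and -0.14 ± 0.20 in iCarP+/Light+ against MI.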

How the data were processed

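RNA from the left ventricle of 12 rats was sequenced, 4 rats per group. Whole-number read counts per gene, not normalized, were deposited by the authors. The submitters' processing notes name HISAT2, featureCounts and rn6; the strand setting and the annotation release were not given in the sources used here. Groups were taken from the sample labels. Rats of a group are separate animals. The edgeR p-values set a difference of group means against a spread between rats that all 3 groups share. A call between 2 groups can therefore also depend on the third.

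Genes were kept by filterByExpr with a minimum count of 10, which left 15101 of 34599. Counts were scaled by TMM and tested with edgeR 4.0.16 (R 4.3.3) by quasi-likelihood, with 1 mean per group in a fit of all 12 rats. P-values were adjusted by Benjamini-Hochberg over all genes tested, with a threshold of 0.05; the standard error is the absolute log2 fold change over the square root of F. The study's methods name t-tests and analysis of variance for its results in general and no test specific to these counts. Limits from 3 counts and intervals cover counting error or the fit only. Depth was 14064414 to 17136958 counts per rat. No pair of rats within a group agreed within sampling noise (chi-square per gene 14.8 to 119 over 18 pairs). On simulated data in which few genes changed, the edgeR fit called most changes of the larger sizes tried and none of the smallest. That smallest size was close to many changes reported here. In these data far more genes were called, among them Psmd3 at 0.24 from Sham to MI. The simulation therefore does not give the sensitivity of the fit here. Ratios were compared by exact permutation over rats.

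Members with values in every rat were the catalytic subunits, activators and inhibitor, the highest and lowest change from Sham to MI in each other class, and each call between iCarP+/Light+ and MI; from lists of other genes, the highest and lowest change and up to 3 calls between iCarP+/Light+ and MI. Psmd8, given in every rat as well, and other genes named were chosen after their values were seen. The result of 1 listed gene is not reported here. The members and lists were chosen with earlier results of these data known, and the CCAAT motif was added after the design had been set. Alternatives were DESeq2 1.42.0, limma-voom (limma 3.58.1), DESeq2 size factors, total counts alone, other filters, a table restricted to protein-coding genes, a table without mitochondrial genes, a fit restricted to the rats compared, a replicate block, and leaving out each rat.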

Additional observations from a re-analysis of the deposited data

Results flagged for a closer look

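In 84 groups of 4 rats, 7 held a rat whose distance from its nearest neighbor was a large part of the group's range (Dixon ratio above the 95% critical value for 4 samples). Chance flags about 1 in 20 groups, which is 4.20 of the 84. MI replicate 4 accounted for 3 of them. Psma5 stood there at 129.7 CPM against 87.9 to 88.5 CPM in the other MI rats (ratio 0.981), Psmb1 at 228 against 168 to 171 CPM (0.941), and Psmb10 at 139.6 against 71.7 to 78.6 CPM (0.861). In iCarP+/Light+ replicate 2, Psmb9 was at 39.0 CPM against 28.6 to 29.9 CPM (0.857), and the log2 ratio of Psmb9 to Psmb6 at -2.45 against -2.99 to -2.92 (0.862). The other flagged rats were Sham replicate 1 for Psmb3, with 75.2 CPM against 70.2 to 70.9 CPM (0.853), and Sham replicate 5 for Psmd5, with 29.5 CPM against 25.3 to 25.7 CPM (0.895). The cause of these distances was not tested.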

How the results depend on the processing

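Among the proteasome genes, the count higher in MI than in Sham was 21, 42 with total counts alone and 17 to 22 when 1 rat was left out; the count lower was 2, 0 with total counts alone and 2 to 3. Between iCarP+/Light+ and MI, the count higher was 1, 0 with no filter beyond 1 count, with only the rats compared or with total counts alone, and 0 to 2 when 1 rat was left out. The count lower was 1, 2 with DESeq2, its size factors or a minimum of 10 counts in each rat, 19 with total counts alone, and 0 to 1 when 1 rat was left out. Between iCarP+/Light+ and Sham, 16 were higher and 7 lower, 30 and 1 with total counts alone, and 15 to 19 and 2 to 7 when 1 rat was left out. Total counts alone changed the share of higher among all called genes from 47.3 to 73.5%, from 85.2 to 30.7% and from 50.3 to 64.7% in the 3 comparisons.

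Replicate numbers recur across groups of different animals. Deviations from the group mean correlated from -0.15 to 0.07 between same-numbered rats and from -0.15 to 0.2 between other rats of different groups. These correlations showed no pairing but cannot exclude a factor that same-numbered rats share. With the replicate number as a block, 13 members were higher and 2 lower in MI than in Sham, 0 and 0 passed between iCarP+/Light+ and MI, and 13 and 6 between iCarP+/Light+ and Sham.

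Of 745 values of named members under settings other than leaving out a rat, 665 kept direction and call, 20 lost and 21 gained a call, and 39 changed sign; when 1 rat was left out, 820 of 900 kept both and 35 changed sign. Sign changes with total counts alone from Sham to MI were Psmb9 0.43, Psmb5 0.49, Psmb7 0.33, Psmf1 0.02, Psma7 0.48, Psmc5 0.55 and Psmd12 0.44. From MI to iCarP+/Light+ they were Psme3 -0.18, Psme4 -0.07, Psmb1 -0.20 and Psmd5 -0.26, and from Sham to iCarP+/Light+ Psmb8 0.29, Psmb6 0.28, Psme2 0.16, Psma7 0.12, Psmc5 0.03, Psmd12 0.11 and Psmg4 0.04. From Sham to MI, Psmc5 was 0.11 with only the rats compared, 0.05 with at least 10 counts, 0.04 with DESeq2 or its size factors, 0.00 with no filter and 0.01 without mitochondrial genes, and with only the rats compared Psmb5 was 0.05, Psma7 0.04 and Psmd12 0.00. From MI to iCarP+/Light+, Psmd5 was -0.04 with only the rats compared or without mitochondrial genes, -0.06 with at least 10 counts, -0.05 with DESeq2 or its size factors and -0.01 with no filter. Psmc1 was 0.01 with limma-voom and 0.00 with protein-coding genes only, and Psmd1 0.00, 0.01 and 0.01 with these and the block. Psmb8 from Sham to iCarP+/Light+ was 0.09 with limma-voom.

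Ranges over fits without 1 rat that crossed 0 from Sham to MI were Psmb9 -0.50 to 0.05, Psmb10 -0.04 to 0.37, Psmb5 -0.19 to 0.03, Psmb6 -0.02 to 0.23, Psma7 -0.20 to 0.02, Psmb1 -0.01 to 0.21, Psmc5 -0.10 to 0.08, Psmd10 -0.06 to 0.61 and Psmg4 -0.04 to 0.29. From MI to iCarP+/Light+ they were Psmb7 -0.23 to 0.03, Psme3 0.00 to 0.15, Psma5 -0.17 to 0.05, Psma7 -0.18 to 0.01, Psmb3 -0.12 to 0.09, Psmb1 -0.01 to 0.18, Psmc1 -0.09 to 0.11, Psmd4 -0.13 to 0.06, Psmd1 -0.08 to 0.06, Psmd12 -0.13 to 0.00, Psmd5 -0.09 to 0.06 and Psmd10 -0.33 to 0.83. From Sham to iCarP+/Light+ they were Psmb8 -0.29 to 0.19, Psmb6 -0.07 to 0.01 and Psmd10 -0.05 to 1.11. All 9 ratio comparisons kept direction. The cause of the changes was not tested. Psmd10 had too few counts for its direction to be read.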
